A study of Mus musculus with 12 samples.

Results

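The genes described here encode the parts of the inflammasome, the cytosolic complex through which macrophages sense microbes and damage. They are the sensors Nlrp3, Nlrp1b, Nlrc4, Mefv and Aim2, the related peptidoglycan receptor Nod2, the adaptor Pycard, the caspases Casp1 and Casp4, and the pore former Gsdmd. They were chosen by symbol, which picked out 10 of the 55335 gene rows of the count table, each listed once, and they were followed over all 12 libraries. The libraries came from bone marrow derived macrophages (BMDMs) and livers of male mice with floxed Tshr alleles, Tshr being the receptor for thyroid-stimulating hormone (TSH). Control mice (Tshrf/f, written f/f) carried the floxed alleles alone, and MKO mice (Tshrf/f,Lyz2-Cre) also carried Cre recombinase under the myeloid Lyz2 promoter. No group carried Cre without the floxed alleles, so loss of the receptor cannot be told apart from the presence of Cre. BMDMs from mice aged 6 weeks by the GEO labels (the methods give a range that starts there) were grown for 7 days in 10 ng/mL M-CSF, and those of both genotypes then received 1 ng/mL TSH for 24 h, so no BMDM library was without TSH. Liver donors of both genotypes ate a high-fat diet from the age of 6 weeks, for 9 weeks in all, and were killed 5 min after 1.5 U/kg insulin following an 8 h fast. Each of the 4 groups had n = 3 libraries, numbered 1 to 3. The methods name as many mice as libraries in a BMDM group, but neither they nor the labels tie a BMDM library to a mouse, so the p-values measure the spread between these libraries.

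A sensor that meets its trigger, such as bacterial flagellin for Nlrc4 or double-stranded DNA for Aim2, recruits caspase-1 directly or through the adaptor ASC, the product of Pycard. Caspase-1 then cuts pro-IL-1β and pro-IL-18 to their secreted forms and cuts gasdermin D, whose fragments open pores in the plasma membrane, whereas caspase-11, the product of mouse Casp4, binds bacterial lipopolysaccharide itself. In macrophages, the genes for some of these proteins, Nlrp3 and Casp4 among them, are known to be induced by inflammatory signals, a step called priming, and Kupffer cells, the resident macrophages of the liver, are a known site of their use.

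The BMDM libraries held 33683981 to 40954211 counts and the liver libraries 28962878 to 40420513, so that 3 counts corresponded to 0.0687–0.115 CPM (counts scaled to library size with TMM factors), a limit that covers counting error only. All 9 macrophage markers were detected in every library, and the 5 hepatocyte markers summed to at most 0.0783 CPM in BMDMs and to 63240–88150 CPM in livers. BMDM f/f replicate 3 stood apart, with a normalization factor of 0.738 against 0.993–1.11 in the other BMDM libraries, and the BMDM fold changes, list counts and likeness values below are also given without it. Tshr itself had 0, 0 and 2 counts in f/f BMDMs, 0, 0 and 5 in MKO BMDMs and 0 in every liver library, so its loss could not be checked. Lyz2, whose promoter drove Cre, was at 8773–9843 CPM in f/f BMDMs and at 14540–22320 CPM in MKO BMDMs. In livers Lyz2 read 27.7, 59.9 and 44.7 CPM in f/f and 1.565, 106.5 and 43.75 CPM in MKO. MKO liver replicate 1 thus lay below every other liver for Lyz2, while its other 8 macrophage markers summed to 190.6 CPM. The reason for this low value was not tested. A supplementary receptor table of the study lists the liver libraries under the opposite group headings, and the genotypes of the livers are given here as labelled in GEO.

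To find out whether loss of the receptor in myeloid cells changed the inflammasome genes of TSH-treated macrophages, MKO and f/f BMDMs were compared. Of the 10 genes, 8 were lower in MKO BMDMs (49.2% of all genes tested were lower by any amount) and 2 higher. Their median log2 fold change was −1.03, beside 0.01 over all 15372 genes tested. None of the 10 passed the edgeR quasi-likelihood test after Benjamini–Hochberg adjustment over all genes, where 0% of the genes did. At an unadjusted p under 0.05, 7 genes were lower in MKO BMDMs (10.2% of all genes tested) and 1, Nlrp1b, was higher (7.73%). With a fold change of at least 2 as well, the thresholds of the study, 5 were lower (5.52% of all genes) and 1 higher (3.3%). The study applied these thresholds to another test, that of DEGseq, and here they were applied to edgeR. The 3 values of f/f and the 3 of MKO did not overlap for 6 genes that were lower in MKO (14% of all genes) and for Nlrp1b (14.8% higher among all genes). DESeq2 gave an adjusted p under 0.05 to 6 of the 10 (Nlrp3, Nlrc4, Mefv, Nod2, Casp1 and Casp4, all lower in MKO), and it gave one with lower values in MKO to 4.53% of all genes.

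Among the sensors, Nlrp3 (chr11:59541568-59566956, plus strand, all positions in GRCm38), which responds to potassium loss and crystals, read 452, 188 and 1440 CPM in f/f BMDMs and 105, 90.4 and 214 CPM in MKO BMDMs. F/f replicates 1 and 3 lay above every MKO library, but the groups overlapped, since MKO replicate 3 lay above f/f replicate 2. The log2 fold change was −2.34 (SE 0.78, edgeR adjusted p = 0.237), and −1.24 without f/f replicate 3. Mefv (chr16:3707218-3718097, minus strand), which encodes pyrin, read 144, 81.7 and 330.2 CPM in f/f and 47.0, 44.3 and 79.8 CPM in MKO BMDMs, with f/f replicate 2 just above MKO replicate 3. Its log2 fold change was −1.70 (SE 0.54, edgeR adjusted p = 0.231), and −0.99 without f/f replicate 3.

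Nlrc4 (chr17:74425438-74459142, minus strand), the signal transducer of the NAIP receptors for flagellin and type III secretion proteins, was at 45.0, 31.7 and 78.3 CPM in f/f and 23.7, 20.3 and 27.2 CPM in MKO BMDMs. All MKO values lay below all f/f values, and the log2 fold change was −1.12 (SE 0.34, edgeR adjusted p = 0.225), and −0.69 without f/f replicate 3. Nod2 (chr8:88647315-88688474, plus strand) measured 60.6, 33.0 and 122 CPM in f/f and 11.8, 8.43 and 32.9 CPM in MKO BMDMs. These groups were separate by a narrow gap, between f/f replicate 2 and MKO replicate 3, and the log2 fold change was −2.02 (SE 0.67, edgeR adjusted p = 0.237), and −1.41 without f/f replicate 3.

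Nlrp1b and Aim2 did not share this direction or size. Nlrp1b (chr11:71153102-71230733, minus strand) encodes a sensor of anthrax lethal factor in some mouse strains. It read 27.0, 17.4 and 4.88 CPM in f/f and 40.2, 33.3 and 54.8 CPM in MKO BMDMs. All MKO values were higher, with a log2 difference of 1.38 (SE 0.57 and edgeR adjusted p = 0.278), and 0.94 without f/f replicate 3, the library with the lowest level. Nlrp1b has related neighbours in the Nlrp1 cluster, and whether reads were split between copies was not tested, so its level is uncertain. Aim2 (chr1:173350879-173466040, plus strand), the sensor of cytosolic DNA, was at 53.5, 34.7 and 43.7 CPM in f/f and 34.9, 32.9 and 44.5 CPM in MKO BMDMs, groups that overlapped (log2 fold change −0.23, SE 0.20, edgeR adjusted p = 0.551, and −0.24 without f/f replicate 3).

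Pycard (chr7:127989708-127993867, minus strand), the adaptor shared by most of these sensors, read 65.9, 63.1 and 30.6 CPM in f/f and 51.8, 48.8 and 62.9 CPM in MKO BMDMs. The groups overlapped, with f/f replicate 3 the lowest of the 6, and the log2 fold change was 0.03 (SE 0.30, edgeR adjusted p = 0.958), or −0.24 without that library. Pycard shares 485 exon bases with the antisense gene Gm45205, which held only 30 counts over the 6 BMDM libraries.

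Both caspases were lower in MKO BMDMs. Casp1 (chr9:5298517-5307265, plus strand) was at 155, 106.6 and 217 CPM in f/f and at 81.3, 84.8 and 85.0 CPM in MKO BMDMs, so the MKO values were close together and all below f/f. The log2 fold change was −0.93 (SE 0.26, edgeR adjusted p = 0.222), and −0.65 without f/f replicate 3. Casp4, its neighbour (chr9:5308828-5336783, plus strand), was at 126, 51.4 and 278 CPM in f/f and at 33.3, 35.7 and 45.5 CPM in MKO BMDMs, again with no overlap. Its log2 fold change was −1.99 (SE 0.58, edgeR adjusted p = 0.222), and −1.22 without f/f replicate 3.

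Gsdmd (chr15:75862327-75867408, plus strand), the pore former cut by both caspases, read 178, 128 and 232 CPM in f/f and 97.8, 93.7 and 125 CPM in MKO BMDMs. The groups were separate, f/f replicate 2 lying just above MKO replicate 3, and the log2 difference of −0.76 (SE 0.25, edgeR adjusted p = 0.236) was the smallest among the 6 genes with separate groups and lower values in MKO. It was −0.54 without f/f replicate 3.

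**Figure D1:**
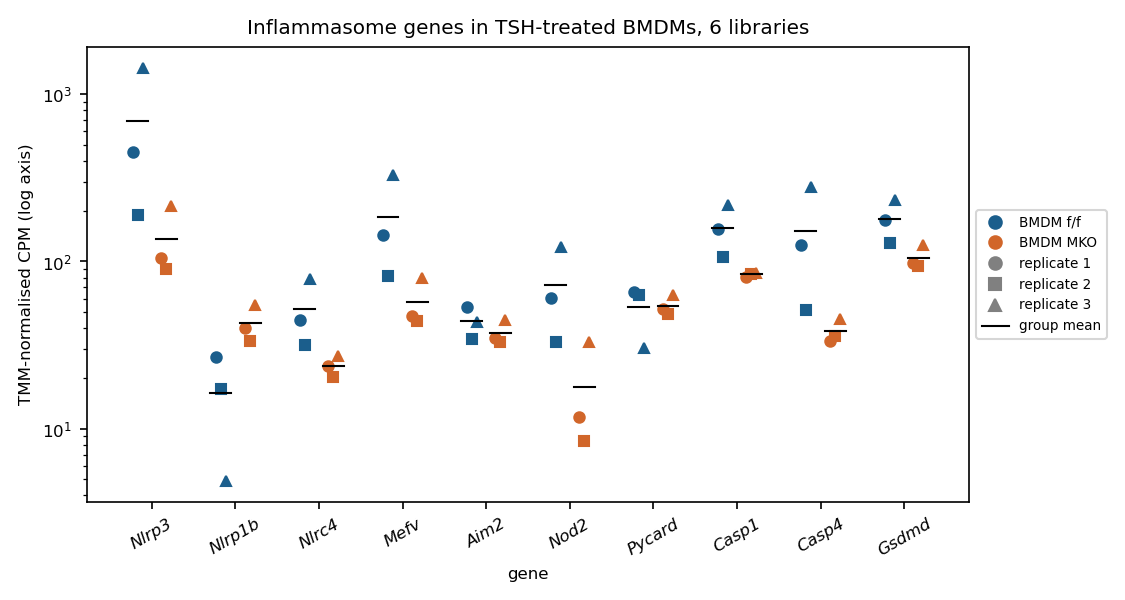
TMM-normalised CPM (log axis) of the 10 genes in the 3 f/f (blue) and 3 MKO (orange) BMDM libraries, with symbols for replicates 1 to 3 and a line at each group mean. Nlrc4, Mefv, Nod2, Casp1, Casp4 and Gsdmd show all MKO points below all f/f points, Nlrp1b shows the reverse, and f/f replicate 3 (blue triangle) is the highest point of 7 genes and the lowest of Nlrp1b and Pycard.

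BMDM f/f replicate 3 was the highest of the 6 libraries for 7 of the 10 genes, as it was for 31.1% of all genes tested, and the lowest for 2, as for 36% of all genes. Against the mean of f/f replicates 1 and 2 it held 4.5 times the CPM of Nlrp3 and 3.13 times that of Casp4 but 0.22 times that of Nlrp1b and 0.474 times that of Pycard. MKO replicate 3 was the highest MKO library for all 10 genes, where 44.5% of all genes had it highest. With f/f replicate 3 left out, the 10 genes had a median log2 difference of −0.67, and 5 genes were lower and 1 higher at an unadjusted p under 0.05 in edgeR, as were 7.4% and 7.85% of all genes. Of the 10, only Casp4 was also lower by 2-fold or more, beside 2.98% of all genes. Without MKO replicate 1, Nlrc4 and Casp4 alone passed these 2 thresholds, and without MKO replicate 2, Casp4 alone did. Casp4 was the one gene of the 10 that passed them in each of the 6 fits that left out a BMDM library.

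**Figure D2:**
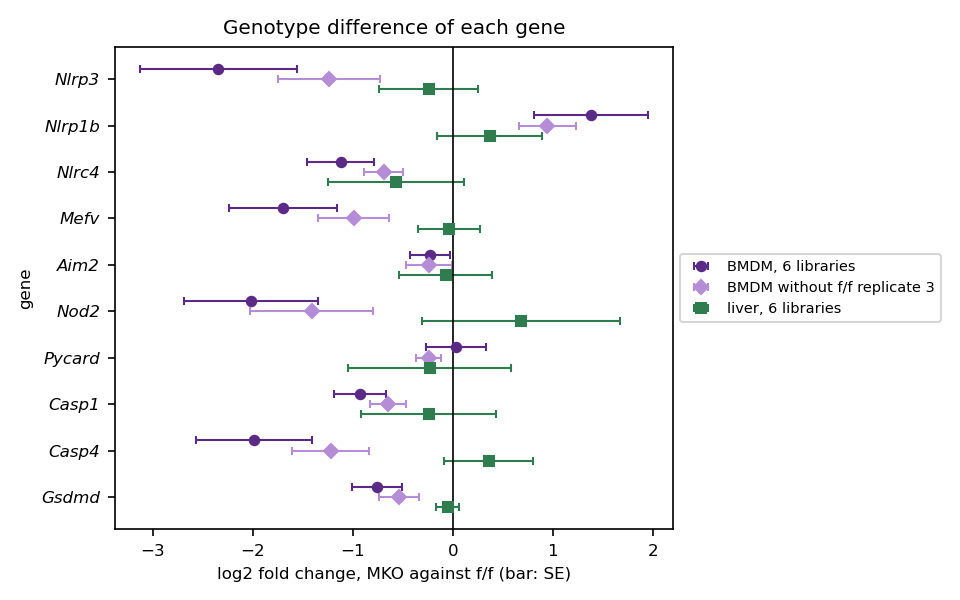
Log2 fold change of each gene between MKO and f/f with its SE, in all 6 BMDM libraries, in BMDMs without f/f replicate 3, and in all 6 liver libraries. The BMDM values run from −2.34 (Nlrp3) to 1.38 (Nlrp1b) and move toward 0 without that library, except for Pycard and Aim2, whereas the liver values lie between −0.57 and 0.68.

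Ratios between genes of a library do not depend on its scaling. Nlrp3 counts over Pycard counts were 6.85, 2.99 and 47.1 in f/f and 2.02, 1.85 and 3.41 in MKO BMDMs, which overlapped. Nlrp3 over Nlrp1b was 16.7, 10.8 and 295.0 in f/f and 2.61, 2.72 and 3.91 in MKO BMDMs, so the 2 sensors stood in a higher ratio in every f/f library than in any MKO library. Casp4 over Casp1 was 0.812, 0.482 and 1.28 in f/f and 0.41, 0.421 and 0.535 in MKO BMDMs, overlapping between f/f replicate 2 and MKO replicate 3. These ratios were chosen after the values were seen and were given no test.

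The summed level of monocyte markers differed in the same direction as most of these genes. All 3 (Ly6c2, Ccr2 and Plac8) were detected in every BMDM library, and their sum was 425, 250.1 and 970 CPM in f/f and 109.7, 102.3 and 216 CPM in MKO BMDMs, although Ly6c2 and Plac8 were lower and Ccr2 higher in every MKO library than in any f/f library. The sum of the 9 macrophage markers was 15290–17980 CPM in f/f and 20420–30240 CPM in MKO BMDMs, a gap that came from Lyz2, since the other 8 summed to 6419–9210 and 5877–7924 CPM, which overlapped. Within those 8, markers with separate groups went in both directions. Mrc1 was higher in MKO (53.7–126.3 CPM in f/f, 247.4–532 CPM in MKO). Cd14 (386.8–2807 and 134.7–378.2 CPM) and, by a narrow gap, Adgre1 (1162–1536 and 1008–1137 CPM) were lower in MKO. Of the 10 neutrophil markers 1 to 4 were at 0, and their sum was 18.0–365 CPM in f/f and 18.5–114 CPM in MKO BMDMs. Mmp8 alone made up most of the highest sums, with 334 CPM in f/f replicate 2 and 102.2 CPM in MKO replicate 3, and the other 9 summed to 7.38–48.9 and 5.36–12.2 CPM. The part of these differences in the results on the 10 genes was not tested.

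The genes that act around the inflammasome were taken from 3 lists. Of 26 regulators, all tested in BMDMs, 9 were lower and 0 higher in MKO at an unadjusted p under 0.05 in edgeR (10.2% and 7.73% of all genes), with a median log2 fold change of −0.32, and none passed adjustment. Without f/f replicate 3, 7 were lower and 2 higher (7.4% and 7.85% of all genes), with a median of −0.13. Gbp2, Gbp5 and Gbp3, 3 of the 4 listed guanylate-binding proteins, GTPases that open up bacteria for caspase-11 and Aim2, held the lowest p-values. Gbp5 was at 724, 134 and 1814 CPM in f/f and 32.7, 41.3 and 77.8 CPM in MKO BMDMs (log2 fold change −4.14, edgeR adjusted p = 0.218), with no overlap. Gbp2 (−2.69, edgeR adjusted p = 0.218), Gbp3 (−2.46, 0.218) and Tnfaip3, a ubiquitin-editing brake on NF-κB (−2.95, 0.222), were also lower in MKO. These log2 fold changes were, without f/f replicate 3, −3.10 for Gbp5, −2.15 for Gbp2, −1.74 for Gbp3 and −1.62 for Tnfaip3.

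Of 16 other sensors and NLR genes, 14 were tested in BMDMs, and 2 were lower and 3 higher at an unadjusted p under 0.05 (10.2% and 7.73% of all genes), and their median log2 fold change was 0.13. When f/f replicate 3 was left out, 1 was lower and 4 were higher (7.4% and 7.85% of all genes), with a median of 0.08. Nlrc3, described as a negative regulator of innate signaling, was at 10.8, 6.71 and 3.69 CPM in f/f and 24.5, 20.6 and 15.3 CPM in MKO BMDMs (log2 fold change 1.50, edgeR adjusted p = 0.218). Zbp1, a sensor of Z-form nucleic acid, was the sensor with the lowest p among those lower in MKO (−2.02, edgeR adjusted p = 0.222), Nlrc5, an activator of MHC class I genes, was lower (−1.29, edgeR adjusted p = 0.247), and Naip5, a flagellin receptor, was higher (0.43, edgeR adjusted p = 0.249). The values without f/f replicate 3 were 1.20 for Nlrc3, −1.44 for Zbp1, −0.78 for Nlrc5 and 0.30 for Naip5.

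Of 12 outputs and executioners, 4 were lower and 0 higher in MKO BMDMs at an unadjusted p under 0.05 in edgeR (10.2% and 7.73% of all genes), with a median of −0.42. Leaving out f/f replicate 3, 1 was lower, Il1a, and 0 were higher (7.4% and 7.85% of all genes), with a median of −0.25. Il1b, the main substrate of caspase-1, read 216, 453 and 5941 CPM in f/f and 5.33, 3.49 and 86.6 CPM in MKO BMDMs (log2 fold change −6.11, SE 2.01, edgeR adjusted p = 0.236). The groups were separate, replicate 3 was the highest library of each, and the log2 fold change was −3.41 without f/f replicate 3. Il18, the other cytokine that caspase-1 matures, read 26.3, 6.00 and 66.2 CPM in f/f and 9.51, 8.75 and 9.76 CPM in MKO BMDMs, with f/f replicate 2 below all MKO libraries (log2 fold change −1.81, edgeR adjusted p = 0.282, and −0.80 without f/f replicate 3). Il1a, the other IL-1 cytokine, read 353.5, 283 and 6250 CPM in f/f and 23.5, 16.1 and 96.0 CPM in MKO BMDMs, with no overlap (−5.67, edgeR adjusted p = 0.222, and −2.83 without f/f replicate 3). Il1rn, the antagonist of the IL-1 receptor, read 154, 67.0 and 3404 CPM in f/f and 43.3, 33.8 and 106.3 CPM in MKO BMDMs. F/f replicate 2 lay below MKO replicate 3, so the groups overlapped, and the log2 fold change of −4.31 (edgeR adjusted p = 0.257) became −0.87 without f/f replicate 3, under 2-fold. Il18bp, the decoy that binds IL-18, was at −1.22 (edgeR adjusted p = 0.232), and at −0.88 without that library. The 3 lists were written with earlier results of these libraries known, so their counts are descriptions.

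The 10 genes differed in how closely their BMDM patterns followed each other. Likeness was measured as the root mean square difference of centred log2 CPM over the 6 BMDM libraries, which share their depth, culture and scaling. Casp1 and Gsdmd were the closest pair (0.148), followed by Nlrc4 and Casp1 (0.179), and Nlrp3 and Nlrp1b the farthest (2.36). Among 13003 genes compared, the 3 nearest outside the 10 were Traf2, Tcea1 and Eef1e1 for Casp1 (0.05, 0.0601 and 0.0644). For Gsdmd they were Amn1, Stxbp3 and Zc3h7a (0.065, 0.0675 and 0.0763), and for Casp4 Zfp800, Tank and Ripk2 (0.109, 0.113 and 0.12). For Nlrp3 they were Slco3a1, Gm42549 and Gm42547 (0.176, 0.188 and 0.202). These are the closest of many genes over 6 libraries and were given no test. The spread of Nlrp3 itself was 1.36 on this scale and that of Casp1 0.526. Without f/f replicate 3, the closest pair of the 10 was Nlrc4 and Gsdmd (0.0948), ahead of Nlrc4 and Casp1 (0.139) and Casp1 and Gsdmd (0.143), and the farthest was Nlrp1b and Nod2 (1.31). The named neighbours then lay at 0.0305, 0.0629 and 0.0669 (Traf2, Tcea1 and Eef1e1) and 0.057, 0.0727 and 0.0802 (Amn1, Stxbp3 and Zc3h7a). Those of Casp4 lay at 0.109, 0.0933 and 0.132 (Zfp800, Tank and Ripk2). Those of Nlrp3 lay at 0.193, 0.204 and 0.21 (Slco3a1, Gm42549 and Gm42547).

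The promoters of 5 genes are shown because the BMDM differences set Nlrp3, Nod2 and Casp4, with the 3 lowest log2 fold changes, apart from Nlrp1b and Pycard, the 2 with values above 0. Being picked from the ends of these fold changes, they give no test of a link between sequence and direction. Each stretch covers up to 250 bases before the RefSeq start (GRCm38.p6), cut short where the annotated gene begins. It is written 5′ to 3′ on the strand of the gene. Capitals mark the matches to the looser κB form GGGNNNNNCC, within which the matches to the stricter decamer lie, and to the cAMP element core TGACG. A further match to the looser form, 14 bases before the start of Casp4, lies beyond the printed stretch, which ends 22 bases before it.
Casp4 promoter (chr9:5308599-5308827, plus strand): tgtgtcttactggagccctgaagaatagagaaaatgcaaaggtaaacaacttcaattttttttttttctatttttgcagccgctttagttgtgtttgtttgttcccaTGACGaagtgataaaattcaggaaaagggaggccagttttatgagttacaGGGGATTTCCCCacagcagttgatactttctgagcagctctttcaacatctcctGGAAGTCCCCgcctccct
Nlrp3 promoter (chr11:59541319-59541567, plus strand): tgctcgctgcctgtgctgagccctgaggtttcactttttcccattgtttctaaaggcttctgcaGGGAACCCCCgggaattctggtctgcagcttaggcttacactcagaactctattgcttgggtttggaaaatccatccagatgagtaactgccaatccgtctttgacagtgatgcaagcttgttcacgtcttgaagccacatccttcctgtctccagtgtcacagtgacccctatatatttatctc
Nod2 promoter (chr8:88647097-88647314, plus strand): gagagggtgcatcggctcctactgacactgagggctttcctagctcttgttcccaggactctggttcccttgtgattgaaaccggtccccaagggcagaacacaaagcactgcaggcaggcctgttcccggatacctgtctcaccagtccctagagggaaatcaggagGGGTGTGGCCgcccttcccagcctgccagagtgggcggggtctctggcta
Nlrp1b promoter (chr11:71230734-71230983, minus strand): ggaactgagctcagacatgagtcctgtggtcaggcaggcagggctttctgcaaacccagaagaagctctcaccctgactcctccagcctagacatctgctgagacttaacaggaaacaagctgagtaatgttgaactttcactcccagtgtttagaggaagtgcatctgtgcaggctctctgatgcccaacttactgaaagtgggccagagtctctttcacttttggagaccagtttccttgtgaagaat
Pycard promoter (chr7:127993868-127994117, minus strand): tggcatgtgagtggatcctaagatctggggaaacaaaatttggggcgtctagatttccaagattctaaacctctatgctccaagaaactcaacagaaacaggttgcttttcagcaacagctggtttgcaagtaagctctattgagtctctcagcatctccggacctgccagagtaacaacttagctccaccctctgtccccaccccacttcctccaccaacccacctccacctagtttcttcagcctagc
The stricter κB decamer, bound by the NF-κB dimers, was matched in 2 of the 9 genes with a listed promoter, at 93, 92 and 39 bases before the start of Casp4 and at 186 bases before that of Nlrp3, and in 7.25% of 32851 promoter windows. Nod2 had no match to the decamer. The looser form GGGNNNNNCC was matched in 5 of the 9 (Casp1, Casp4, Mefv, Nlrp3 and Nod2) and in 45.8% of windows. Nlrc4 and, with overlapping groups, Aim2 were also lower in MKO BMDMs, yet they had no match to either form, like Nlrp1b and Pycard. TGACG was found in Casp4 only, 143 bases before the start, and in 17.8% of windows. The interferon element, GAAA, any 2 bases and GAAA again (2.98% of windows), the STAT element TTCNNNGAA (7.02%) and the AP-1 element TGANTCA (6.75%) had no match in the 9 windows. Both strands were searched, the decamer matches at 93 and 92 bases overlap and are also matches to the looser form, and the decamer was added after values were seen. No listed window was found for Gsdmd. Casp4, Nlrp3 and Nlrp1b had 2 listed windows each, of which the most upstream was used. A match in these windows is a description of sequence and was not compared with any binding data.

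To find out how the same genes stood in liver, their levels were first ordered by CPM per kilobase of exon, to allow for length. Exon length was the union of all annotated exons (for Pycard 3800 bases in 3 blocks), not the length of a transcript. Where that union is longer than the transcript, the level per kilobase is understated, so the order is approximate. In f/f BMDMs the means ran from Nlrp3 (126) through Casp1 (78.3), Gsdmd (55.3), Mefv (41.9), Casp4 (30.1), Nod2 (10.5), Pycard (10.3), Aim2 (9.22) and Nlrc4 (7.90) to Nlrp1b (1.91), and only Nlrc4 and Nlrp1b did not overlap with the next gene in the order. In MKO BMDMs Casp1 led (41.3), above Gsdmd (32.8) and Nlrp3 (24.9), and Nod2 was last (2.62). There, Casp1 did not overlap with Gsdmd, nor Casp4 (7.60) with Nlrp1b (5.01). In livers Gsdmd led with 19.2 in f/f and 18.7 in MKO, followed without overlap by Casp1 (2.31 and 1.97), and the other 8 genes had means of 0.0845–0.939 with overlapping neighbours.

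All 10 genes were higher in BMDMs than in liver in both genotypes in the edgeR fit of all 12 libraries (adjusted p of at most 0.00572). Of all 17246 genes tested, 69.3% were called in f/f and 68.5% in MKO, 32.7% and 31.8% of them all being higher in BMDMs. The median log2 difference of the 10 genes was 4.94 in f/f and 3.89 in MKO, beside −0.03 and −0.07 over all genes. In f/f it was largest for Nlrp3 (7.81, SE 0.90), Nod2 (6.92, SE 0.94) and Casp4 (5.89, SE 0.65), and smallest for Nlrp1b (2.54, SE 0.62) and Gsdmd (1.53, SE 0.21). In MKO, where the f/f and MKO contrasts rest on separate libraries, Nlrp3 was at 5.72, Casp1 at 4.37, Casp4 at 3.54 and Gsdmd at 0.81 (SE 0.21, edgeR adjusted p = 0.00572). Tissue cannot be told apart from culture, TSH, diet and insulin in this design. With library totals and no scaling factors the median of all genes moved to 0.79 in f/f and 0.90 in MKO, where 8573 genes were called higher and 3895 lower in BMDMs of f/f mice (5634 and 6310 with TMM). All 10 genes were still higher in BMDMs by more than that shift.

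**Figure D3:**
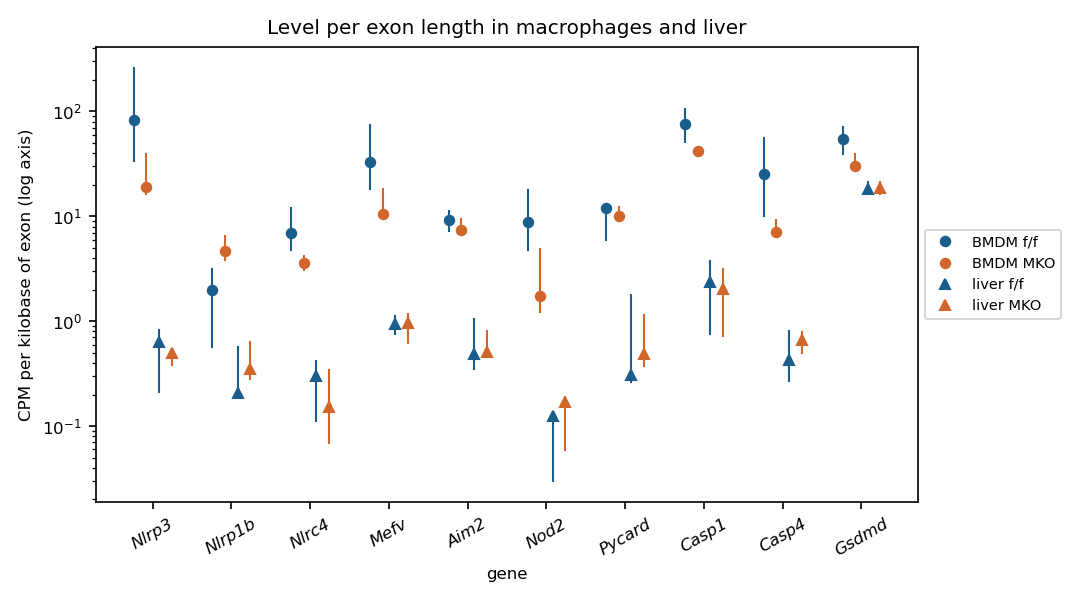
Median (symbol) and range (line) of CPM per kilobase of exon (log axis) over the 3 libraries of each group, for f/f (blue) and MKO (orange) BMDMs (circles) and livers (triangles). Gsdmd shows the smallest gap between tissues, and the line for Nod2 in f/f livers ends at a floor of the plot that stands for 0 counts in 1 library.

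Gsdmd took most of the counts of the 10 genes in liver and a small share of them in BMDMs. Without correction for gene length, it held 13.6, 17.4 and 8.34% of the summed counts of the 10 genes in f/f BMDMs and 18.6, 19.0 and 16.2% in MKO BMDMs. In livers the shares were 82.5, 57.9 and 72.3% in f/f and 73.2, 63.6 and 73.6% in MKO. All 6 livers lay above all 6 BMDM libraries. The log2 ratio of Gsdmd to the other 9 genes was −2.49 ± 0.516 in BMDMs and 1.30 ± 0.616 in livers (SD, n = 6 each), a difference of 3.80. This ratio does not depend on scaling, and it was chosen after the values were seen and given no test.

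To find out whether loss of the receptor in myeloid cells was accompanied by a change of these genes in the whole liver, livers labelled MKO and f/f were compared. All 10 genes overlapped between the genotypes (7.74% of all 15062 genes tested were separate and lower in MKO, and 9.6% separate and higher), and none had an unadjusted p under 0.05 in edgeR (5.18% lower and 5.27% higher among all genes, and 0.856% and 0.69% with a 2-fold change as well). DESeq2 also called none. Of the 10, 7 were lower in MKO livers by any amount, as were 50.9% of all genes. The log2 fold changes ran from −0.57 (Nlrc4, SE 0.68, edgeR adjusted p = 0.821) to 0.68 (Nod2, SE 0.99, edgeR adjusted p = 0.863), with a median of −0.06 beside −0.01 for all genes. Levels were low, and in bulk liver fewer cells of a type and less RNA per cell cannot be told apart.

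Gsdmd read 37.4, 31.8 and 32.0 CPM in f/f and 36.4, 32.1 and 29.0 CPM in MKO livers, the most even of the 10 genes, with a log2 difference of −0.05 (SE 0.12, edgeR adjusted p = 0.921). Its highest liver value was 1.29 times its lowest. Pycard read 0.744, 4.91 and 0.863 CPM in f/f and 1.34, 3.14 and 1.06 CPM in MKO livers, so that replicate 2 of each genotype stood above the other livers and the highest value was 6.59 times the lowest (log2 fold change −0.23, SE 0.82, edgeR adjusted p = 0.956). Casp1 was at 0.846, 4.16 and 2.62 CPM in f/f and 2.21, 3.41 and 0.814 CPM in MKO livers (log2 fold change −0.24, SE 0.67, edgeR adjusted p = 0.939), again highest in replicate 2 of each.

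The sensors were near 1 CPM in liver. Nlrp3 was at 0.643, 1.90 and 2.46 CPM in f/f and 1.59, 1.12 and 1.52 CPM in MKO livers, Mefv at 1.83–2.67 and 1.52–2.79 CPM, and Nlrp1b at 0.896–2.65 and 1.35–2.88 CPM. Nod2 had 0, 17 and 14 counts in f/f and 22, 9 and 20 counts in MKO livers, of which the 0 allows up to 0.102 CPM by counting error alone. Casp4 was at 0.744, 2.21 and 1.16 CPM in f/f and 1.34, 2.12 and 1.84 CPM in MKO livers, with a log2 difference of 0.36 (SE 0.45, edgeR adjusted p = 0.828). Aim2 (0.896–2.70 CPM over the 6 livers) and Nlrc4 (0.248–1.49 CPM) overlapped between genotypes too.

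**Figure D4:**
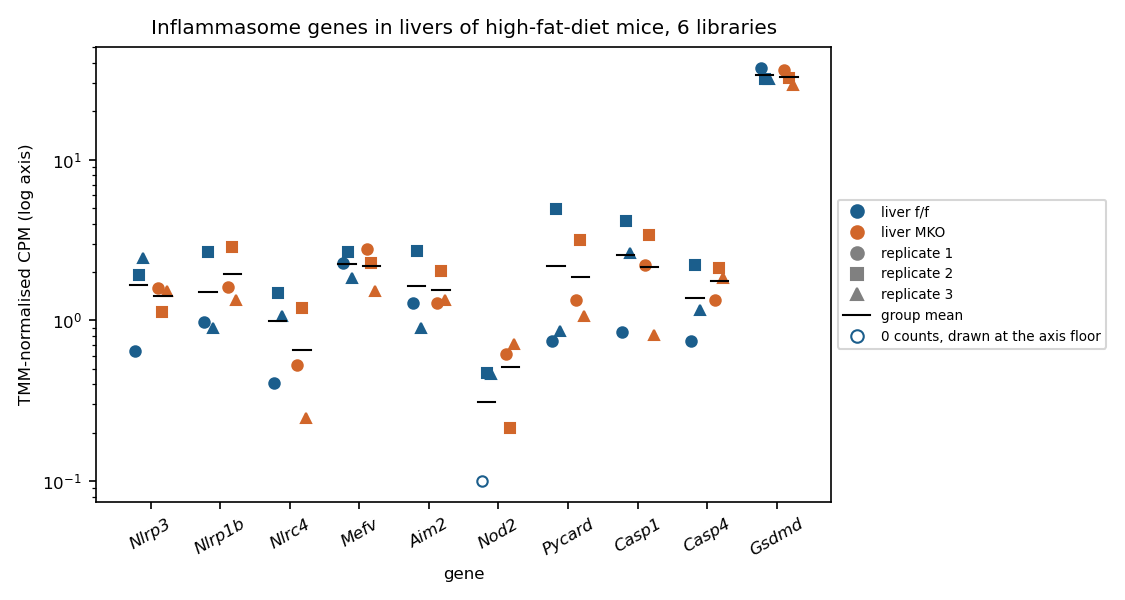
TMM-normalised CPM (log axis) of the 10 genes in the 3 f/f (blue) and 3 MKO (orange) liver libraries, with symbols for replicates 1 to 3 and a line at each group mean. Gsdmd sits at 29.0–37.4 CPM and the other 9 genes below 5 CPM, and the open circle marks the f/f library with 0 counts of Nod2, drawn at the axis floor.

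The summed macrophage, Kupffer cell and dendritic cell markers were highest in the same livers as 6 of the 10 genes. Replicate 2 of f/f and replicate 2 of MKO were the 2 highest livers for 6 of the 10 genes (Nlrp1b, Nlrc4, Aim2, Pycard, Casp1 and Casp4). The same 2 livers were highest for the summed CPM of the 9 macrophage markers (147, 367 and 263 in f/f, 192, 337 and 155 in MKO), of the 5 Kupffer cell markers (223, 590 and 436 in f/f, 389, 503 and 195 in MKO) and of the 5 dendritic cell markers (5.82, 37.1 and 10.8 in f/f, 7.04, 23.6 and 6.55 in MKO). The dendritic sum was mostly Itgax, at 31.7 and 18.6 CPM in these livers and 1.05–2.79 CPM in the other 4. Other dendritic markers did not share this order, since Zbtb46 was highest in f/f replicate 3 (6.93 CPM) and Flt3 lowest in MKO replicate 2 (0.214 CPM). The macrophage markers Mrc1, Mertk and Cd14 and the Kupffer cell marker Clec4f did not have these 2 livers highest either, while the others of those lists did. Lyz2 made up 106.5 CPM of the macrophage sum in MKO replicate 2. Without Lyz2 the 2 livers were still highest, but MKO replicate 2 was at 230.7 CPM beside 218.2 CPM in f/f replicate 3. The T and NK cell markers, near the floor, also summed highest in these 2 livers (2.73 and 2.00 CPM). The monocyte, B cell, hepatocyte and liver endothelial sums were highest in f/f replicate 2, but MKO replicate 2 was not second. The neutrophil sum was highest in f/f replicate 1 (95.9 CPM, with 9.52–31.3 CPM in the other livers). No macrophage or Kupffer cell marker was at 0 in any liver, and the part of any of these cell types in the levels of the 10 genes was not tested. Gsdmd did not follow the macrophage, Kupffer cell and dendritic cell sums, being at 31.8 and 32.1 CPM in replicate 2 of f/f and of MKO. Without f/f replicate 2, 3 of the 10 genes were lower and 7 higher in MKO livers, with a median log2 fold change of 0.41, and Pycard turned to 1.21 (edgeR adjusted p = 0.411).

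**Figure D5:**
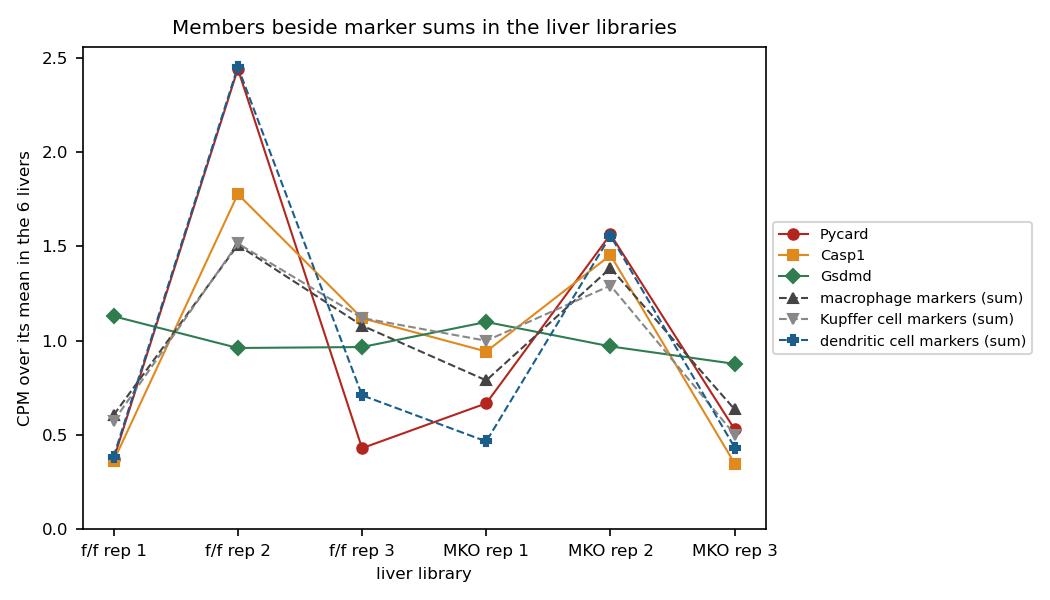
CPM of Pycard, Casp1 and Gsdmd (solid lines) and summed CPM of macrophage, Kupffer cell and dendritic cell markers (dashed lines) in the 6 liver libraries, each divided by its mean over the 6. Pycard, Casp1 and the 3 sums peak in f/f replicate 2 and MKO replicate 2, while Gsdmd stays between 29.0 and 37.4 CPM.

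Among the other sensors, 2 were well detected in liver and at or near 0 in BMDMs. Nlrp6, a sensor best known in gut epithelium, read 170, 201 and 175 CPM in f/f and 199, 207 and 228 CPM in MKO livers and 0 counts in all BMDM libraries (log2 fold change between liver genotypes 0.22, edgeR adjusted p = 0.536). Nlrp12 read 108, 43.8 and 106 CPM in f/f and 50.8, 64.8 and 55.5 CPM in MKO livers, with 4 counts in 1 BMDM library and 0 in the others (−0.59, edgeR adjusted p = 0.587). Of the 13 other sensors tested in liver, 1 was lower at an unadjusted p under 0.05 (5.18% of all genes were lower and 5.27% higher), Naip1 (−1.36, edgeR adjusted p = 0.44), and of the 26 regulators 3 were lower, Ripk1 (−0.33, edgeR adjusted p = 0.378), Dpp9 (−0.45, edgeR adjusted p = 0.437) and Nek7 (−0.25, edgeR adjusted p = 0.468). Dpp9 is the protease that restrains Nlrp1b and Nek7 is a partner of Nlrp3.

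Among the 12 outputs in liver, 2 were higher in MKO at an unadjusted p under 0.05 (5.27% of all genes), namely Serpinb1a, an inhibitor of caspase activation and neutrophil proteases (log2 fold change 0.86, edgeR adjusted p = 0.384) and Il1a (1.08, edgeR adjusted p = 0.403), and 1, Il1rn, was lower (5.18% of all genes, −0.74, edgeR adjusted p = 0.441). Ninj1, which ruptures the membrane of dying cells, had a log2 fold change of 0.19 (edgeR adjusted p = 0.554). Il1b read 6.26, 12.8 and 7.70 CPM in f/f and 7.43, 9.14 and 2.90 CPM in MKO livers (−0.46, edgeR adjusted p = 0.775). Il18 overlapped as well, at 3.32–7.83 CPM in f/f and 5.62–6.62 CPM in MKO livers (0.16, edgeR adjusted p = 0.903).

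The difference between the genotype effect in BMDMs and that in liver was then tested as an interaction in the fit of all 12 libraries. None of the 10 genes passed adjustment in edgeR, where 0.0058% of the 17246 genes did. DESeq2 called 1, Casp4, with a lower log2 fold change in BMDMs than in liver, as it did 2.05% of all genes. At an unadjusted p under 0.05, 3 genes had a lower log2 fold change in BMDMs than in liver (7.42% of all genes), namely Casp4 (difference −2.35, SE 0.79, edgeR adjusted p = 0.237), Mefv (−1.67, SE 0.67, edgeR adjusted p = 0.301) and Gsdmd (−0.72, SE 0.30, edgeR adjusted p = 0.315). Nod2 (−2.66, edgeR adjusted p = 0.345) and Nlrp3 (−2.09, edgeR adjusted p = 0.367) had larger differences with larger errors (SE 1.20 and 1.00). Without BMDM f/f replicate 2 the adjusted p of Casp4 was 0.0489 in edgeR. Without BMDM f/f replicate 3 the differences were −1.56 for Casp4, −0.95 for Mefv, −0.48 for Gsdmd, −2.03 for Nod2 and −0.96 for Nlrp3, and Casp4 alone of the 5 had an unadjusted p under 0.05.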

How the data were processed

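RNA was measured in 12 mouse libraries made strand-specific with a TruSeq kit and read on a NovaSeq instrument. The deposited values are raw counts of reads per gene, which the authors made after quality control with Skewer and FastQC 0.11.2. STAR, StringTie and mm10 are named in the submitters' processing notes, and the counting program is not given in the sources used here. Groups were taken from the GEO labels.

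Genotypes were compared within a tissue in R 4.3.3 with the robust quasi-likelihood test of edgeR 4.0.16, after filterByExpr and TMM scaling, and tissues and the interaction in a fit of all 12 libraries. A gene was called at a Benjamini–Hochberg adjusted p under 0.05 over all genes. CPM are counts scaled by TMM. Exon lengths and positions came from GENCODE M21 (GRCm38). All 10 genes passed the filter in each fit, and the edgeR fits within a tissue were tried on simulated counts. All 10 genes were named, with up to 4 genes a list and genotype comparison with the lowest p, plus Il1b and Il18, and for likeness the genes nearest to Nlrp3, Casp1, Casp4 and Gsdmd with a mean of at least 1 CPM. Some listed genes are not reported here and were left out of their lists. The genes and lists were chosen with earlier results of these data known. Alternatives were RLE and upper-quartile factors, library totals, and lists and likeness without BMDM f/f replicate 3 (these chosen after seeing the data), no filter, a filter at a mean of 50 counts, DESeq2 1.42.0, a replicate block, the first letter of the library ID as a covariate, all 12 libraries in 1 fit, and each library left out.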

Additional observations from a re-analysis of the deposited data

How the results depend on the processing

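In BMDMs, DESeq2 gave an adjusted p under 0.05 to 6 of the 10 genes (Nlrp3 0.0205, Nlrc4 0.0451, Mefv 0.0294, Nod2 0.0299, Casp1 0.0342 and Casp4 0.0131), where edgeR gave it to 0. Over all genes DESeq2 called 696 lower and 520 higher, the fit of all 12 libraries 85 lower and 65 higher, and the main edgeR fit 0. For the interaction DESeq2 called 1 of the 10 (Casp4, 0.0499). The cause of these differences was not tested. With each BMDM library left out, 1 to 6 of the genes passed the unadjusted p and 2-fold thresholds (6 with all libraries), and 0 to 1 passed the adjusted interaction test. Library totals moved the median of all BMDM genes to 0.17 and that of the 10 to −0.77, left 4 of them past the thresholds, and split all genes past the thresholds into 647 lower and 612 higher (848 and 508 with TMM), and the mean of at least 50 counts left 8 of the 10 genes tested in liver.

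In BMDMs only Pycard changed direction, with log2 fold changes from −0.24 to 0.23 as libraries were left out. In liver these values ran from −0.64 to 0.13 for Nlrp3, −0.044 to 1.06 for Nlrp1b, −0.25 to 0.16 for Mefv, −0.37 to 0.51 for Aim2, −0.87 to 1.21 for Pycard, −0.76 to 0.31 for Casp1 and −0.15 to 0.022 for Gsdmd. Aim2 in liver was 0.15 with the library-ID covariate. In the interaction they ran from −1.02 to 0.21 for Nlrc4, −0.76 to 0.13 for Aim2 and −1.20 to 0.92 for Pycard, and Aim2 was at 0.0046 with library totals. The other directions of the 10 genes, and all calls between tissues, were the same under each alternative run.

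Libraries with the same replicate number had low correlations of their deviations in BMDMs (0.0959, 0.0126 and 0.102) and in livers (−0.0562, 0.217 and −0.0209). Not every library correlated best with its own number, although BMDM replicates 3 and liver replicates 2 did. The highest correlation in each tissue was between different numbers (0.153 in BMDMs and 0.281 in livers). With a replicate block 0 of the 10 genes were called in either tissue (lowest adjusted p in BMDMs 0.0829, Nod2), 5 passed the thresholds in BMDMs, all 10 were higher in BMDMs than in liver, and liver Aim2 and Pycard were 0.037 and 0.12. Depth limits liver Nod2 and Nlrc4 most.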
